A study of Homo sapiens with 2 samples.

Results

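Desmosomes are the spot-like junctions that tie the keratin filaments of neighbouring epithelial cells together. The genes described here encode 4 desmosomal cadherins (DSG2, DSG3, DSC2 and DSC3), the armadillo proteins JUP, PKP1, PKP2 and PKP3, and the plakins DSP and PPL. They were chosen by symbol, as 10 genes of the 26506 in the deposited tables, and all 10 were found. Poly(A) RNA came from a human corneal epithelial cell line (ATCC CRL-11515) kept for 72 hours in either the special medium or keratinocyte serum-free medium (KSFM). The special medium was DMEM/F12 with fetal bovine serum at 10%, calcium chloride at 1 mM, EGF at 10 ng/mL and an antibiotic/antimycotic, and the labels give no component of KSFM. RNA from 3 cultures was pooled into 1 library per medium, so no difference has a replicate check and no p-value is given. The media differ in several components, whose effects cannot be told apart.

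In a desmosome the cadherins, desmogleins and desmocollins, meet those of the next cell in the intercellular space, and this binding requires calcium. Inside the cell plakoglobin (JUP) and the plakophilins (PKP1, PKP2 and PKP3) bind the cadherin tails, and desmoplakin (DSP) links them to keratins. Periplakin (PPL) is a related plakin found at desmosomes and in the cornified envelope. DSG2 and DSC2 are the widely expressed cadherins of simple epithelia and heart, whereas DSG3 and DSC3 belong to the lower layers of stratified epithelia and DSG1 and DSC1 to the upper layers of the epidermis. Stratified epithelium of the cornea holds desmosomes throughout its layers.

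The special medium library holds 16900472 counts and the KSFM library 21604652. Levels of different genes are compared as deposited TPM (a level that adjusts for transcript length). Ratios between media are special medium over KSFM, from CPM (counts scaled to library size) after TMM scaling, and each is followed in parentheses by its exact 95% interval, which covers counting error and no spread between cultures. Of 12 listed markers of corneal epithelium 7 reached 1 CPM in either library. Of the defining ones, KRT3 had 1 count in the special medium and 0 in KSFM, KRT12 had 0 in both, and PAX6 had 73 and 69. Besides KRT3 and KRT12, the markers below 1 CPM in both media were KRT14 (10 counts in the special medium and 4 in KSFM), TP63 (13 and 5) and ALDH3A1 (14 and 5). KRT15 had 11.3 TPM in the special medium and 2.93 TPM in KSFM, and CLU had 16.8 and 13.5 TPM. The most abundant markers of the list were EPCAM at 449 TPM in the special medium and 301 TPM in KSFM, TKT (transketolase) at 608 and 186 TPM, and CDH1 at 176 and 197 TPM. The library of each medium is a bulk sample, in which fewer cells of a type and less RNA per cell cannot be told apart.

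Promoter sequence is shown for the members past the 2-fold rule used below, JUP and DSC3, and for DSC2, the neighbour and paralog of DSC3. RefSeq (GRCh38.p14) gave 9 promoter windows for 7 of the 10 members, each running from 250 bases before to 50 bases after a transcript start. The sequences are written 5′ to 3′ on the strand of the gene. Capitals mark the E-box CAGGTG, which SNAI and ZEB repressors can read, and the GC box GGGCGG, read by SP and KLF factors, each on either strand. Both JUP windows, on the minus strand at chr17:41786662-41786961 and chr17:41785927-41786226, come first. They are followed by DSC3, minus strand, chr18:31042693-31042992, and the upstream DSC2 window, minus strand, chr18:31102372-31102671.
JUP upstream start: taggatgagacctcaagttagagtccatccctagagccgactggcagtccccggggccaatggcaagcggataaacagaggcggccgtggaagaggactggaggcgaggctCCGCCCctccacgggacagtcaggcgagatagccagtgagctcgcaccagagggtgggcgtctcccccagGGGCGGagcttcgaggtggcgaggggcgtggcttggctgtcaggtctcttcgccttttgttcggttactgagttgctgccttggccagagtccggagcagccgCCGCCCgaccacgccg
JUP downstream start: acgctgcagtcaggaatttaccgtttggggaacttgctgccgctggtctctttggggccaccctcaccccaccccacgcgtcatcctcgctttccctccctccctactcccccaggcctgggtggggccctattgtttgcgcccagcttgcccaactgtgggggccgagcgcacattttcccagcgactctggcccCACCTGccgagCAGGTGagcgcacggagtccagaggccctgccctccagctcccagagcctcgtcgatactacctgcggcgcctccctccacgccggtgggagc
DSC3: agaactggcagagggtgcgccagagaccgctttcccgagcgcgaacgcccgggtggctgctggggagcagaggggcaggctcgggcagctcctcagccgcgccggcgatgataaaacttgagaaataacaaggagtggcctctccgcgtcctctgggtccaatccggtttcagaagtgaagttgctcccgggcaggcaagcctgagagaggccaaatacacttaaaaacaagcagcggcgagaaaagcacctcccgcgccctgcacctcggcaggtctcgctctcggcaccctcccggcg
DSC2 upstream start: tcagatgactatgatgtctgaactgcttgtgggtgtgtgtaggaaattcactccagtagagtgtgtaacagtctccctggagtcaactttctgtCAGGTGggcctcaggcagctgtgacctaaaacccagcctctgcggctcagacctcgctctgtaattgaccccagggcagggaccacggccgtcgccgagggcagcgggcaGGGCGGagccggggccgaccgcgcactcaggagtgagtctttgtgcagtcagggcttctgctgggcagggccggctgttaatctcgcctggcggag

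The downstream JUP window holds 2 E-boxes, beginning 54 and 43 bases before the start, and the upstream one holds 3 GC boxes. The DSC3 window holds no match to either motif, and the upstream DSC2 window holds 1 of each. The other DSC2 window, chr18:31101211-31101510, which is not shown, holds 2 GC boxes and no E-box. Across the 9 windows an E-box was found in 4, in DSC2, DSG2, DSP and JUP, against 20.6% of 35116 RefSeq windows of the same 300-base length. A GC box was found in 6 of the 9, against 44.95% of all windows. The other 3 motifs searched on both strands, AACCNGTT (grainyhead-like factors), TGANTCA (AP-1) and CCGGAAG (ETS factors), had no match in the 9 windows, against 1.73%, 7.71% and 10.3% of all windows. These motifs do not overlap one another in the windows shown. A match describes letters only, and no binding was measured.

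The comparison asks how the change of medium altered the transcripts of the desmosome. A gene was called where the ratio was 2-fold or more in either direction, its interval left out equality and at least 1 library held 1 CPM or more. By this rule 16.6% of the 13632 genes tested were called, 9.86% higher and 6.77% lower in the special medium. Of the 10 members 9 passed the CPM filter, and of these 1 was higher (JUP), 1 lower (DSC3) and 7 neither, a share near that background. The median log2 ratio of the 9 was 0.37, against -0.00037 over all genes tested. Log2 ratios lay above 0 in 8 of the 9 members and in 49.97% of all genes tested. The member below the filter was PKP1.

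**Figure D1:**
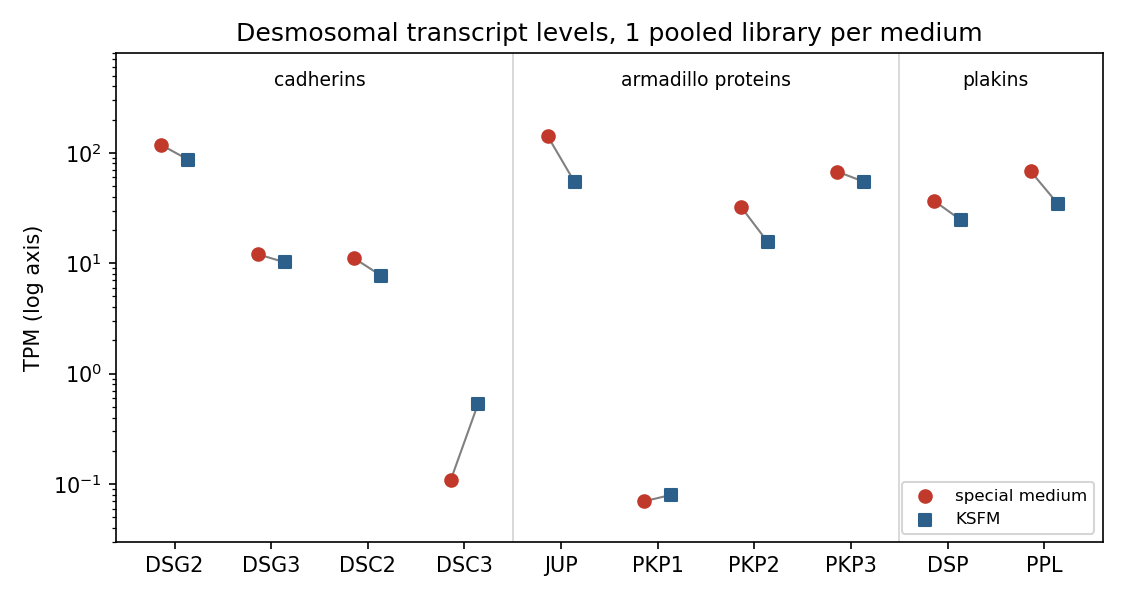
TPM of the 10 members (y axis, log scale) in the special medium (red circles, left of each pair) and KSFM (blue squares, right), 1 pooled library each. DSG2 and JUP stood highest, at 118 and 142 TPM in the special medium, and PKP1 and DSC3 lay below 1 TPM in both media.

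Among the cadherins, DSG2 carried most of the transcript in both media. DSG2 had 118 TPM in the special medium and 86.7 TPM in KSFM. DSG3, the desmoglein that autoantibodies target in pemphigus vulgaris, had 12.1 TPM in the special medium and 10.2 TPM in KSFM. DSC2 had 11.1 and 7.70 TPM, and DSC3 had 0.11 and 0.53 TPM, in the special medium and KSFM. Thus DSG2 made up 83.5% of the summed TPM of the 4 genes in the special medium and 82.5% in KSFM, while the family sum was 141 TPM and 105 TPM.

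Counts gave the same order of ratios. DSG2 had 5403 counts in the special medium and 5650 in KSFM, or 319 and 262 CPM, a ratio of 1.22 (1.17 to 1.27). DSC2 had 468 and 463 counts, or 27.7 and 21.5 CPM, a ratio of 1.29 (1.13 to 1.47). DSG3 had 543 and 654 counts, or 32.1 and 30.3 CPM, and its ratio of 1.06 (0.943 to 1.19) has an interval that includes equality. Each of these 3 ratios was short of 2-fold, and the 3 intervals lie between 0.943 and 1.47.

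DSC3 (ENSG00000134762, chromosome 18, 30990008 to 31042815) was the cadherin past the rule, on few reads. It had 7 counts in the special medium and 47 in KSFM after rounding of deposited values of 6.98 and 46.58, or 0.414 and 2.18 CPM. The level was 5.26-fold lower in the special medium (2.36 to 13.8), and 0.668% of the genes tested had a lower ratio. It was not called with a filter of 10 CPM, nor on log2(TPM + 1), where the log2 ratio was -0.46. A fractional count arises where reads are divided among sequences, as also for DSG2, DSG3 and PKP2, and with which sequences DSC3 shared reads was not measured.

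Relative to its paralog DSC2, DSC3 was lower as well, on the same few DSC3 reads. The ratio of DSC2 to DSC3 was 101 in the special medium and 14.5 in KSFM on TPM, and on counts it was 6.79 times larger in the special medium (3.002 to 17.96). DSC3 made up 0.983% of desmocollin TPM in the special medium and 6.44% in KSFM. The ratio of DSG2 to DSG3 was 9.78 in the special medium and 8.49 in KSFM on TPM, and on counts it was 1.15 times larger in the special medium (1.02 to 1.30). Desmogleins outweighed desmocollins by 11.6 times in the special medium and 11.8 times in KSFM.

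The cadherin genes form a cluster on chromosome 18, and their levels there were uneven. In GENCODE release 29 (GRCh38) the 7 genes span 559 kb from 30990008 to 31549008, with the desmocollins on the minus strand in the order DSC3, DSC2 and DSC1, then DSG1, DSG4, DSG3 and DSG2 on the plus strand. The epidermal genes of the middle of the cluster were scarcely detected. DSC1 had 1 count in the special medium and 3 in KSFM, and DSG1 and DSG4 had 0 in both. A count of 0 allows up to 0.177 CPM in the special medium and 0.139 CPM in KSFM, at 3 counts. So the transcripts came from DSG3 and DSG2 at one end and DSC2 and DSC3 at the other.

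Genes on either side of the cluster differed in ratio. TTR, which encodes the thyroxine carrier transthyretin and lies next to DSG2, had 42 counts in the special medium and 0 in KSFM. Its ratio was 17.9 with a floor of 3 counts in place of 0, and its interval began at 13.9 with no upper limit. CDH2 (N-cadherin) is not adjacent, as it ends at 28177446 and the cluster starts at 30990008. It had 184 and 103 counts and was 2.28-fold higher (1.78 to 2.93). B4GALT6, a galactosyltransferase gene, and TRAPPC8, a trafficking complex gene, had ratios of 1.62 and 1.19 and were not called. The antisense genes DSCAS and DSG2-AS1, which overlap DSC2 and DSG2, had 1 and 0 counts in the special medium and 0 and 1 in KSFM, and DSG1-AS1 had 0 in both. SEC14L5, on the strand opposite PPL, had 13 counts in the special medium and 10 in KSFM. Whether the counting used strand is not given in the sources used here.

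**Figure D2:**
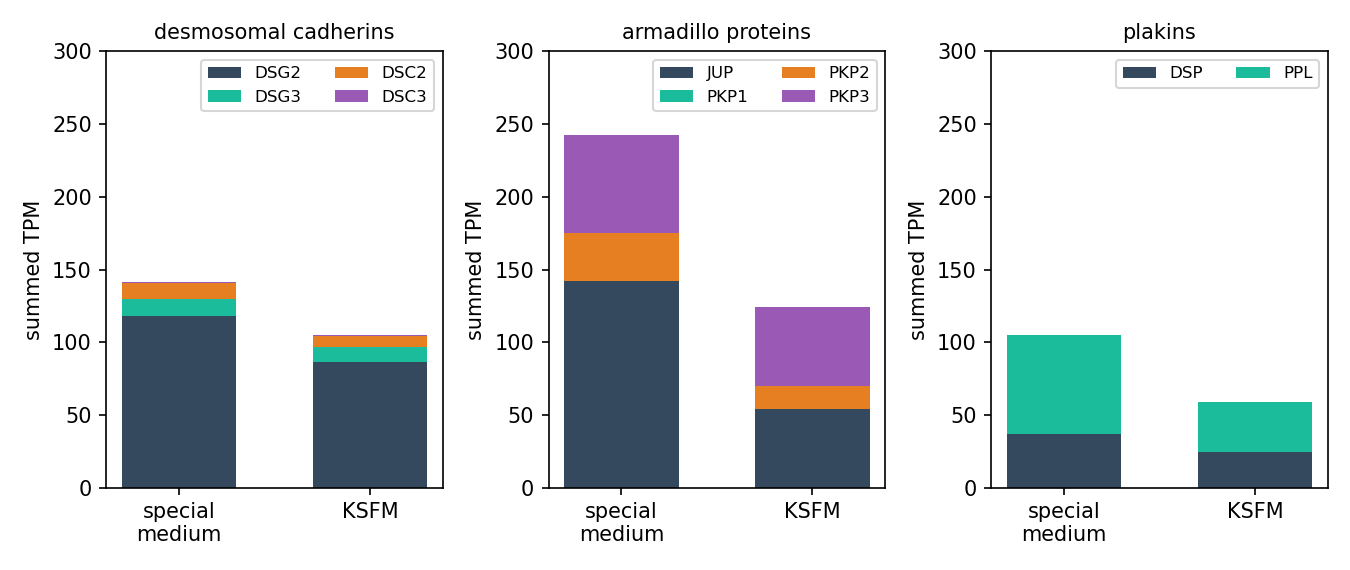
Summed TPM (y axis, same scale in each panel) of the cadherin, armadillo and plakin members in the special medium (left bars) and KSFM (right bars), with 1 colour per gene and 1 pooled library per bar. The armadillo bar reached 242 TPM in the special medium and 124 TPM in KSFM, and JUP made up the largest segment in the special medium.

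The armadillo genes, whose products bind the cadherin tails, held the member called higher on counts, JUP. JUP encodes plakoglobin, which also binds classical cadherins in adherens junctions. The gene (ENSG00000173801) lies on chromosome 17 from 41754604 to 41786931. It had 3786 counts in the special medium and 2069 in KSFM, or 224 and 95.9 CPM, and 142 and 54.3 TPM. The count ratio was 2.33 (2.21 to 2.46), and 92.8% of the genes tested had a lower ratio. By TPM, JUP ranked 1220 of all 26506 genes in the special medium and 3033 in KSFM, which took it above DSG2 to the top of the members in the special medium.

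JUP was also higher relative to its partners. It stood at 1.01 TPM per TPM of the 4 cadherins in the special medium and 0.517 in KSFM. Against CTNNB1, which encodes beta-catenin, its closest relative, the ratio was 1.02 in the special medium and 0.501 in KSFM, with CTNNB1 itself at 139 and 108 TPM and a count ratio of 1.14 (1.09 to 1.19). Plakoglobin also binds VE-cadherin in endothelium, whose gene CDH5 had 236 counts in the special medium and 3 in KSFM. CDH5 itself had 7.09 TPM in the special medium and 0.06 TPM in KSFM. Of the 5 endothelial markers listed, PECAM1 had 15 and 2 counts, KDR 10 and 10, VWF 2 and 6, and TEK was at 0 in both. The list summed to 7.74 TPM in the special medium and 0.3 TPM in KSFM, against 142 and 54.3 TPM for JUP, and its part in the JUP ratio was not tested.

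The plakophilins recruit DSP and stabilise the plaque, and their ratios were unequal. PKP2, the plakophilin of simple epithelia and heart, had 1130 counts in the special medium and 767 in KSFM, or 66.8 and 35.5 CPM, a ratio of 1.88 (1.71 to 2.06). PKP3, which is found in most desmosome-bearing epithelia, had 1518 and 1755 counts, or 89.7 and 81.3 CPM, a ratio of 1.10 (1.03 to 1.18). The genes lie apart, PKP2 (ENSG00000057294) on chromosome 12 from 32790745 to 32896840 and PKP3 (ENSG00000184363) on chromosome 11 from 392614 to 404908. PKP1 (ENSG00000081277, chromosome 1), a plakophilin of the upper layers of stratified epithelia, had 3 counts in the special medium and 5 in KSFM, too few for a difference to be detectable at this depth.

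PKP2 lay close to the fold required, and its interval reached past it. On deposited TPM it had 32.6 in the special medium and 15.5 in KSFM, a ratio of 2.10 that passes 2-fold, but its log2(TPM + 1) ratio centred on all genes tested was 0.88, short of it. By counts 88.7% of the genes tested had a lower ratio. PKP3 remained the most abundant plakophilin, at 67.5 TPM in the special medium and 54.5 TPM in KSFM. The ratio of PKP2 to PKP3 was 0.483 in the special medium and 0.285 in KSFM, and on counts it was 1.70 times larger in the special medium (1.52 to 1.91). PKP2 thus supplied 32.6% of plakophilin TPM in the special medium and 22.1% in KSFM.

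Both plakins had ratios above 1 without passing the rule. PPL had 3450 counts in the special medium and 2496 in KSFM, or 204 and 116 CPM, a ratio of 1.76 (1.67 to 1.86). DSP had 2832 and 2680 counts, or 167 and 124 CPM, a ratio of 1.35 (1.28 to 1.42). PPL (ENSG00000118898) lies on chromosome 16 from 4882507 to 4960741 and DSP (ENSG00000096696) on chromosome 6 from 7541575 to 7586717. Per length, PPL had 68.1 TPM in the special medium and 34.6 TPM in KSFM, and DSP had 36.8 and 24.5 TPM. The ratio of PPL to DSP was 1.31 times larger in the special medium on counts (1.21 to 1.41). DSP, the obligate link to keratin, stood at 0.261 TPM per TPM of cadherin in the special medium and 0.233 in KSFM.

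**Figure D3:**
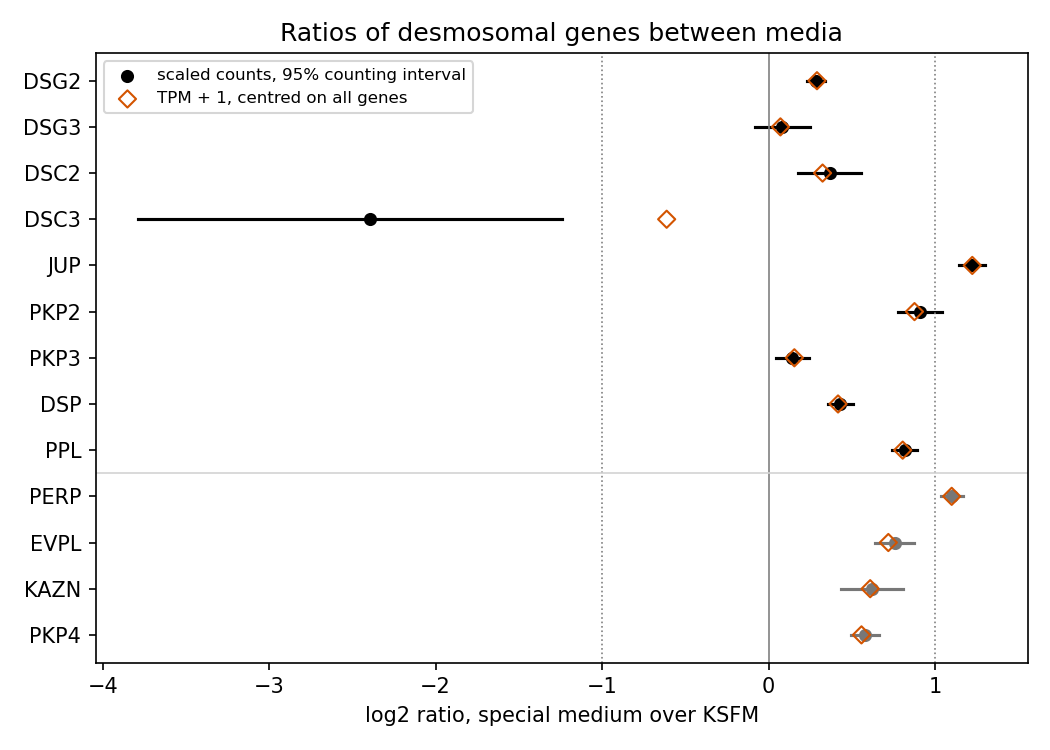
Log2 ratios of special medium over KSFM (x axis) for the 9 members at 1 CPM or more (black) and 4 other desmosomal genes (grey). Filled points are scaled counts with exact 95% counting intervals, open diamonds are log2(TPM + 1) ratios centred on all genes tested, and dotted lines mark 2-fold. By scaled counts, JUP and PERP lie past 2-fold to the right and DSC3, whose interval is widest, to the left. The open diamond of DSC3 lies short of 2-fold, at -0.61.

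Ranked by TPM, the members ran in the special medium from JUP and DSG2 through PPL, PKP3, DSP and PKP2 to DSG3 and DSC2, and then to DSC3 and PKP1. In KSFM, DSG2 led and PKP3 and JUP followed at nearly equal levels of 54.5 and 54.3 TPM, ahead of PPL, DSP and PKP2, with the last 4 places the same. In the special medium PPL and PKP3 were as close, at 68.1 and 67.5 TPM. With 1 library per medium no replicate spread separates such neighbours. The 10 members summed to 488 TPM in the special medium and 289 TPM in KSFM.

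Isoforms were not resolved, but the deposited counts and TPM together give the mean effective length behind each gene. For the 8 members at 5 TPM or more in both media, the log2 ratio of effective length between media lay from 0.00017 for PKP3 to 0.013 for DSP. The middle 95% of 10077 genes ran from -0.087 to 0.078. The mix of long and short transcripts assigned to these 8 genes thus had nearly the same mean length in both media. The log2(TPM + 1) ratio of all genes tested had a median of 0.15, and with that shift removed the TPM ratios of these 8 members lay within the intervals of the count ratios.

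Other components of the desmosome were read from a list of 8 genes, of which 4 were at 1 CPM or more. All 4 had log2 ratios above 0 and 1 was called, with a median log2 ratio of 0.69. PERP, a tetraspan membrane protein of desmosomes, had 4933 counts in the special medium and 2931 in KSFM and was 2.15-fold higher (2.05 to 2.25), at 143 and 59.4 TPM. EVPL, the envoplakin that dimerises with periplakin, had a ratio of 1.69 (1.56 to 1.83), close to that of PPL. KAZN, which encodes the periplakin-binding protein kazrin, and the armadillo gene PKP4 had ratios of 1.54 and 1.49. CDSN, the corneodesmosin of the cornified layer, had 3 counts in the special medium and 2 in KSFM.

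Plakins outside the desmosome had ratios on both sides of 1. PLEC, whose product plectin anchors keratin at hemidesmosomes, had 7310 counts in the special medium and 17445 in KSFM. It was 1.87-fold lower in the special medium (1.82 to 1.92), short of the rule. EPPK1 (epiplakin, a keratin-binding plakin) had 215 and 469 counts and was 1.71-fold lower (1.45 to 2.02). DST and MACF1, giant plakins that also bind the cytoskeleton, had ratios of 1.03 and 1.22. Of the 5 listed plakins other than DSP and PPL, EVPL included, none was called and the median log2 ratio was 0.05.

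**Figure D4:**
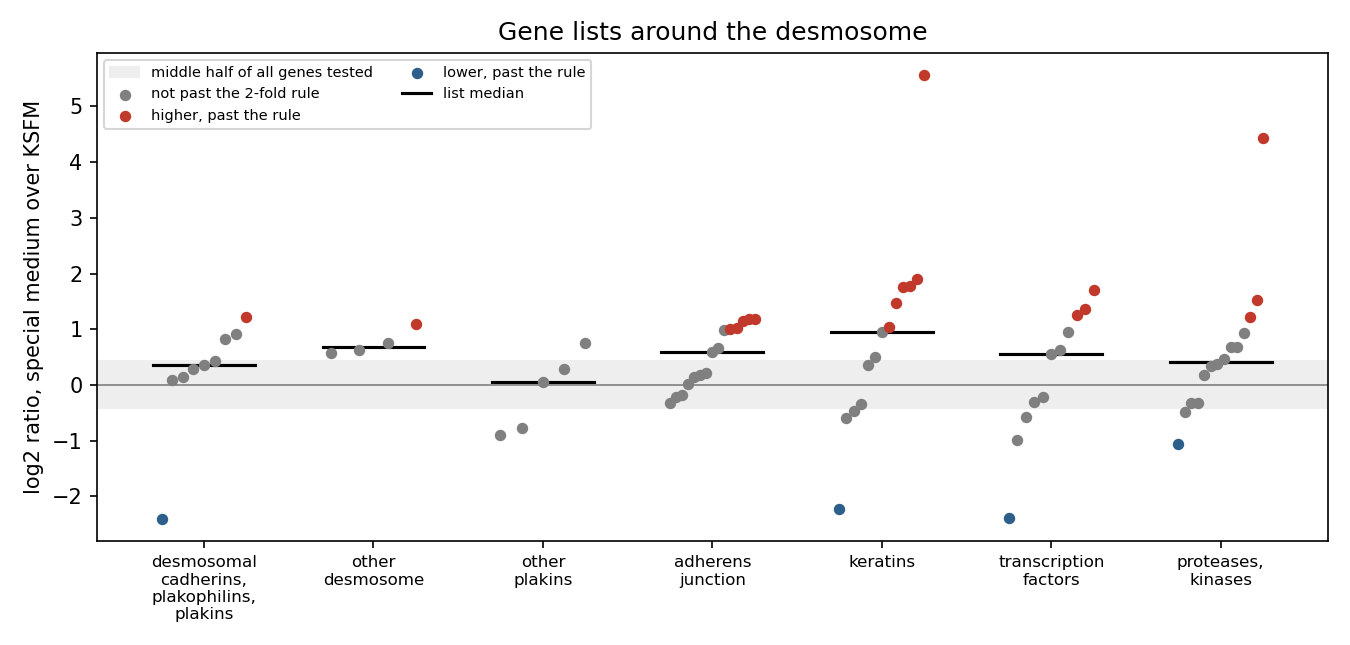
Log2 ratios of special medium over KSFM (y axis) of the genes at 1 CPM or more in each list (x axis), red where called higher, blue where called lower and grey where neither, with the list median as a bar. The grey band is the middle 50% of all genes tested, from -0.41 to 0.43. Every list median lies above 0, and that of the desmosomal members (0.37) lies within the grey band. The others are 0.69 for other desmosomal genes, 0.05 for other plakins and 0.59 for the adherens junction. Keratins have 0.96, transcription factors 0.56, and proteases and kinases 0.42.

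Keratins, which the plaque anchors, had 6 genes called higher, 1 lower and 6 neither of 13 measured, with a median log2 ratio of 0.96. By TPM, KRT18, KRT7 and KRT8 were the most abundant keratins of the list in both media. KRT18 had 2503 TPM in the special medium and 1128 TPM in KSFM, a count ratio of 1.94. KRT7 had 1355 and 1655 TPM, a count ratio of 0.721, and neither gene was called. KRT8 had 1292 and 409 TPM and was 2.78-fold higher, past the rule. KRT19, of simple epithelia, was 3.43-fold higher at 729 TPM in the special medium and 186 TPM in KSFM, and KRT23 was 3.74-fold higher. KRT10, of differentiating epidermis, was 4.69-fold lower (3.95 to 5.61), and KRT13 had 37 and 1 counts, a ratio of 47.2 (7.96 to 1914). Basal KRT5 had 51.1 and 68.7 TPM, a count ratio of 0.660 (0.609 to 0.715), which was not called. Its partner KRT14 stayed below 1 CPM, as did KRT1 and KRT4.

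The adherens junction, the actin-linked junction beside the desmosome, had 5 genes called higher, 0 lower and 10 neither of 15 measured, and a median of 0.59. These were the catenin relatives CTNNAL1 (2.28-fold, 2.18 to 2.39) and CTNND1 (2.01-fold), vinculin VCL (2.21-fold), CDH2, and PVRL2, the older symbol of NECTIN2 (2.04-fold). The classical cadherins lay on either side of equality, with CDH1 at a ratio of 0.799 (0.775 to 0.823) and CDH3 at 1.59 (1.54 to 1.64). CTNNA1, the alpha-catenin that links both to actin, had 422 and 191 TPM and a count ratio of 1.97 (1.92 to 2.03), just short of 2-fold.

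Transcription factors with published links to desmosomal or epithelial junction genes were 3 higher, 1 lower and 7 neither of 11 measured, with a median of 0.56. The E-box repressor SNAI2 had 153 counts in the special medium and 1015 in KSFM and was 5.20-fold lower (4.38 to 6.21). SNAI1 had 179 and 266 counts, a ratio of 0.858 (0.706 to 1.04). TWIST1 had 95 and 150 counts, a ratio of 0.808 (0.618 to 1.05), and neither SNAI1 nor TWIST1 was called. ZEB1 and ZEB2 were below 1 CPM, at 1 and 14 counts in the special medium and 12 and 19 in KSFM. TFAP2A was 3.24-fold higher, KLF4 2.59-fold and GRHL3 2.39-fold. TP63, which drives Perp in stratified epithelia of the mouse, had 13 counts in the special medium and 5 in KSFM. The part of these factors in the ratios of the members was not tested.

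Genes that process desmosomes were 3 higher, 1 lower and 10 neither of 14 measured, with a median of 0.42. The cross-linking transglutaminase TGM1 was 2.88-fold higher, and the protease gene KLK5, whose product cleaves corneodesmosomes in skin, was 2.33-fold higher. Its inhibitor SPINK5 had 17 counts in the special medium and 1 in KSFM, a ratio of 21.7 (3.40 to 906). MMP9 was called lower, on 15 and 40 counts. ADAM17 and ADAM10, sheddases of DSG2, had ratios of 0.799 and 1.30, and PRKCA, a kinase that loosens desmosomal adhesion, had a ratio of 1.38. None of these last 3 was called.

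Markers of other cell types were mostly low. Of 9 fibroblast and keratocyte markers 1 passed 1 CPM, COL1A1, at 143 counts in the special medium and 166 in KSFM. COL1A1 was not called, and LUM, KERA and THY1 were at 0 in both media. The immune marker PTPRC had 0 counts in the special medium and 1 in KSFM, while CD68, which epithelial cell lines also express, had 70.9 and 59.5 TPM. LYZ was the immune marker called, 3.42-fold lower in the special medium (1.75 to 7.31) on 11 counts there and 48 in KSFM. Of 4 melanocyte markers 1 passed 1 CPM, PMEL, at 6.18 and 3.73 TPM, and it was not called. Of 6 cardiomyocyte markers, listed because PKP2, DSG2 and DSC2 are also genes of the cardiac desmosome, MYH6, MYH7 and NKX2-5 passed 1 CPM and none was called, with NKX2-5 at 97 counts in the special medium and 241 in KSFM. The 6 summed to 9.80 TPM in the special medium and 14.5 TPM in KSFM, and NPPA was at 0 in both.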

How the data were processed

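Estimated counts and TPM values per gene symbol were deposited by the authors for 2 pooled libraries. Upstream tools, per the submitters' processing notes, were HISAT2 2.1.0, RSEM, fastp 0.20.0 and FastQC 0.11.9, on GRCh38. The strand setting and annotation release are not stated. Expected counts, as the authors deposited them, were rounded to whole numbers and scaled with edgeR 4.0.16 TMM factors. TPM was used as the authors deposited it. Ratios have exact (Clopper-Pearson) 95% intervals conditional on the summed count. Changes in the ratio of a gene pair have exact conditional intervals of the odds ratio. With 1 pooled library per medium, intervals and floors hold counting error alone. Reads were not tied to single molecules, and each read was counted as independent. There is no test between media. The call rule was tested on simulated counts that hold counting error alone, so that test cannot show how the rule fares with spread between cultures.

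Members and lists were chosen with earlier results of these data known. Older symbols matched 5 listed genes. Genes named are all members, the locus, other desmosome and plakin lists, up to 4 per other list with the largest called ratios, and markers at 10 CPM or more; other names were chosen after their values were seen. Alternatives covered scaling (upper quartile, total count, DESeq2 1.42.0), the 2 TPM pseudocounts 0.1 and 1, the CPM filter (none, or 10), and 2 stricter call rules (4-fold, or the whole interval past 2-fold). Software was Python 3.11.15 with scipy 1.17.1, numpy 2.4.6, matplotlib 3.10.9 and pandas 2.3.3, and R 4.3.3.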

Additional observations from a re-analysis of the deposited data

How the results depend on the processing

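No paired analysis was possible because each medium has 1 pooled library, and no library could be left out. Total count, DESeq2 and upper quartile scaling changed no count of members called and the same genes, JUP and DSC3, were called. Across these and the TPM settings, none of the 60 member log2 ratios changed sign, and 13 lay outside the counting interval. On TPM with a pseudocount of 1 or 0.1 and no centring, 2 members were higher, JUP and PKP2. With a pseudocount of 1 the number lower was 0, centred or not; DSC3 was then not called, since the pseudocount exceeds its TPM. A filter of 10 CPM left 0 members lower, because DSC3 is below it, and a 4-fold rule left 0 higher. Over all genes, the number lower was 349 on TPM with a pseudocount of 1, 605 with 0.1 and 536 centred, against 923 on counts. A filter of 10 CPM gave 788 higher and 446 lower, the 4-fold rule 408 and 162, and an interval wholly beyond 2-fold 837 and 395, against 1344 and 923. Pair ratios on TPM lay within the counting intervals. Depth limits PKP1 and DSC3, at 3 and 7 counts in the special medium.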
